A study of Mus musculus with 15 samples.

Results

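The aminoacyl-tRNA synthetases are the enzymes that join each amino acid to its transfer RNA (tRNA). Their genes were taken by symbol from the deposited expression table, with no measured value used: 38 of its 31298 gene symbols matched. They comprised 21 cytosolic and 17 mitochondrial synthetases. All 38 passed the filter on low values. Tarsl2 was placed with the cytosolic enzymes although its symbol ends in 2, and Kars and Gars, which encode both forms of their enzyme, were also counted there.

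RNA-seq was performed on hematopoietic stem cells (HSCs) from the bone marrow of hCD34-tTA x TetO-H2BGFP mice. In this strain a tetracycline transactivator driven by human CD34 regulatory sequence switches on a green histone, H2BGFP, and doxycycline in the drinking water stops its production, so that label retained in a cell serves as a proxy for how often it has divided. Cells sorted as LSK, CD48-, Flk2- and CD150+ were either kept whole (Total) or split by H2BGFP into 4 bins named GFP1 to GFP4. Each of the 5 groups had 3 libraries, and all mice of every group, Total included, carried both transgenes and had been given doxycycline. Replicate I came from mice aged 5 months after 12 weeks of doxycycline, replicate II from mice aged 5.5 months after 14 weeks, and replicate III from mice aged 6.5 months after 16 weeks. The labels do not say whether a library holds 1 mouse or a pool, nor which bin number retained most label. The bins are therefore given by number. The p-values reflect only how far libraries of one group scatter. That scatter holds differences in age, weeks of doxycycline and any technical differences, which cannot be told apart.

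A synthetase activates its amino acid with ATP and transfers it to the matching tRNA, and the accuracy of this step sets the accuracy of translation. Cytosolic and mitochondrial translation use separate enzymes for most amino acids, and the mitochondrial ones are encoded in the nucleus and imported. Several cytosolic synthetases assemble into the multisynthetase complex, held together by the scaffold proteins AIMP1, AIMP2 and AIMP3 (Eef1e1). Transcription of many cytosolic synthetase genes is known to be raised by ATF4, the factor induced in the amino acid response. HSCs are known for a low rate of protein synthesis.

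The values are log2, quantile normalized by the authors, so that a difference of 1 is a doubling, and the depth of each library is unknown from the table. Markers of other cells bear on the synthetases. When the values were made linear and summed, immunoglobulin genes held 5.27 to 5.65% of each GFP1 library, 4.54 to 6.01% of each Total library and 0.00738 to 0.0826% of each library in bins GFP2 to GFP4. These are shares of normalized values rather than of RNA. Igkc held the top rank, fixed at 19.12, in every GFP1 and Total library, so its amount is unknown. All 15 plasma cell markers were higher in GFP1 than in GFP4 (median log2 difference 2.90, summed share 2.12 to 2.81% against 0.0549 to 0.0867%). Igkc, Ighm and Jchain are on this list and also count among the immunoglobulin genes, so its share is not separate from theirs. Of the B cell markers 7 of 8 were higher too, whereas no neutrophil, macrophage or late erythroid marker passed. Of the plasma cell markers, Tnfrsf17 was at the table's lowest value in 1 GFP2 library, and the others were above it in every library. HSC markers were detected in every library, and 10 of 12 were lower in GFP1 than in GFP4 (median -1.16). Total is thus not free of the immunoglobulin signal that GFP1 carries. In bulk samples, fewer cells of a type and less RNA per cell cannot be told apart.

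The promoters of the synthetases are shown first, because one short sequence known from the amino acid response was found in cytosolic genes. RefSeq windows (GRCm38.p6) from 250 bases before to 50 bases after the start were found for 28 of the 38 genes, 14 cytosolic and 14 mitochondrial. The core of the C/EBP-ATF response element, TGATGNAA, through which ATF4 is known to act, was searched on both strands. It occurred in 5 of 14 cytosolic and 0 of 14 mitochondrial windows, and in 3.97% of all 32851 windows. The 5 genes were Aars, Gars, Tars, Iars and Yars. The 250 bases before the start of Aars and of Gars, and the 30 bases around the match in the other genes, read as follows 5′ to 3′ on the gene's strand, with the matching bases in capitals.
Aars, chr8:111033592-111033841, plus strand: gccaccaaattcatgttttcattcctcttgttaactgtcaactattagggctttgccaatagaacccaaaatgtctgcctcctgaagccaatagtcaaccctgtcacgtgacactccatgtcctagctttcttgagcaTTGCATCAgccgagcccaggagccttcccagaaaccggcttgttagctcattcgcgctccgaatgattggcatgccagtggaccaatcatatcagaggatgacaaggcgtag
Gars, chr6:55037751-55038000, plus strand: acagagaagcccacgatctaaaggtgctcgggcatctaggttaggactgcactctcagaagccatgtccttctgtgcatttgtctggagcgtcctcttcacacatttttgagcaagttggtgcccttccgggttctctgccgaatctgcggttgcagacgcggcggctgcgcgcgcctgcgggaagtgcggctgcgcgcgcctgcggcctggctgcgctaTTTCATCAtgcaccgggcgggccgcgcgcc
Tars, chr15:11399655-11399684, minus strand: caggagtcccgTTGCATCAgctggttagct
Iars, chr13:49682126-49682155, plus strand: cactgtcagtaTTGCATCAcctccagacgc
Yars, chr4:129189895-129189924, plus strand: acgagctcagcTGATGCAAcccgacgggac
The first base of the match lay at -112 in Aars, -30 in Gars and -15 in Tars, counted from the start, and at 8 in Iars and 4 in Yars. Aars held another match at 10. The E-box CACGTG, bound by MYC among other factors, was found in 4 of 14 cytosolic windows (Aars, Farsb, Iars and Tars), 1 of 14 mitochondrial windows (Ears2) and 7.15% of all windows. The ETS core CCGGAA was found in 5 of 14 cytosolic and 7 of 14 mitochondrial windows and in 14.9% of all windows. No match of one motif overlapped a match of another. A match describes letters in a window and was not tested as a binding site.

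Of the 21 cytosolic synthetases, 13 were higher in GFP1 than in GFP4, none was lower and 8 did not pass the test (limma, adjusted p below 0.05), with a median log2 difference of 0.31 over the 21. Mars and Aars differed most, by 1.07 and 0.88. The background was wide: 19.5% of the 27994 genes tested passed in either direction and 9.27% were higher. Among the 9119 genes whose mean value lay in the same range as the synthetases (9.14 to 14.16), 19.6% were higher, and their median difference was -0.03. In 18 of 21 genes all 3 GFP1 libraries lay above all 3 GFP4 libraries, which held for 28.4% of those 9119 genes. Without GFP4 replicate II the number of cytosolic synthetases that passed was 8.

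Aars charges alanine, and its gene lies at chr8:111033144-111057664 (GRCm38), plus strand, in the GENCODE annotation. That gene starts upstream of the RefSeq start used for the promoter printed above, which therefore lies inside the interval. Its values were 11.17, 11.16 and 11.18 in GFP4 replicates I, II and III, 11.37, 11.30 and 11.40 in GFP3, 11.63, 11.61 and 11.57 in GFP2, 12.11, 11.96 and 12.06 in GFP1, and 11.81, 11.72 and 11.91 in Total. The 4 bins were in order with no overlap between neighbours, and Total lay between GFP2 and GFP1. The difference of GFP1 from GFP4 was 0.88 ± 0.09 (SE), a 1.84-fold higher value (adjusted p = 3.67e-07).

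Mars, which charges methionine and therefore also the initiator tRNA, lies at chr10:127296221-127311786, minus strand. It read 10.69, 11.00 and 11.22 in GFP4, 11.09, 11.14 and 11.33 in GFP3, 11.51, 11.50 and 11.32 in GFP2, 12.09, 12.01 and 12.02 in GFP1, and 11.49, 11.64 and 12.01 in Total. All GFP1 libraries exceeded every other bin, while the GFP4 and GFP3 libraries overlapped. The difference of GFP1 from GFP4 was 1.07 ± 0.13, or 2.10-fold (adjusted p = 7.34e-06).

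Gars, which charges glycine in both compartments from one gene at chr6:55038007-55079500, plus strand, showed a different course. It read 11.71, 11.70 and 11.79 in GFP4, 11.73, 11.67 and 11.83 in GFP3, 12.15, 12.05 and 11.98 in GFP2, 12.34, 12.26 and 12.36 in GFP1, and 12.22, 12.10 and 12.20 in Total. GFP4 and GFP3 overlapped, and both lay below GFP2 and GFP1. The difference of GFP1 from GFP4 was 0.59 ± 0.08 (adjusted p = 3.23e-05). Kars, the other gene with products in both compartments, charges lysine. It read 11.64, 11.79 and 11.95 in GFP4, 11.89, 11.92 and 11.96 in GFP3, 12.13, 12.00 and 12.01 in GFP2, 12.14, 12.07 and 12.10 in GFP1, and 12.10, 12.11 and 12.22 in Total. The Kars difference of 0.31 ± 0.09 passed (adjusted p = 0.0178), but 4 of 6 fits that each left out one library lost that call, those without GFP4 replicate I or II or GFP1 replicate I or III (0.23 to 0.38 over the 6).

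Iars, Lars and Tars charge isoleucine, leucine and threonine. Iars read 12.26, 12.24 and 12.18 in GFP4, 12.46, 12.38 and 12.33 in GFP3, 12.41, 12.51 and 12.57 in GFP2, 12.87, 12.75 and 12.70 in GFP1, and 12.68, 12.61 and 12.24 in Total, a GFP1 difference of 0.54 ± 0.10 (adjusted p = 0.000499). Lars read 11.29, 11.39 and 11.37 in GFP4, 11.53, 11.41 and 11.22 in GFP3, 11.75, 11.65 and 11.61 in GFP2, 11.78, 11.85 and 11.87 in GFP1, and 11.64, 11.61 and 11.67 in Total (0.48 ± 0.09, adjusted p = 0.000606). Tars read 11.24, 11.12 and 11.29 in GFP4, 11.37, 11.13 and 11.36 in GFP3, 11.42, 11.40 and 11.44 in GFP2, 11.62, 11.57 and 11.71 in GFP1, and 11.44, 11.56 and 11.44 in Total (0.42 ± 0.09, adjusted p = 0.00271). In all 3 genes GFP1 lay above every library of the other 3 bins, and GFP2 lay above GFP4 without overlap.

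**Figure D1:**
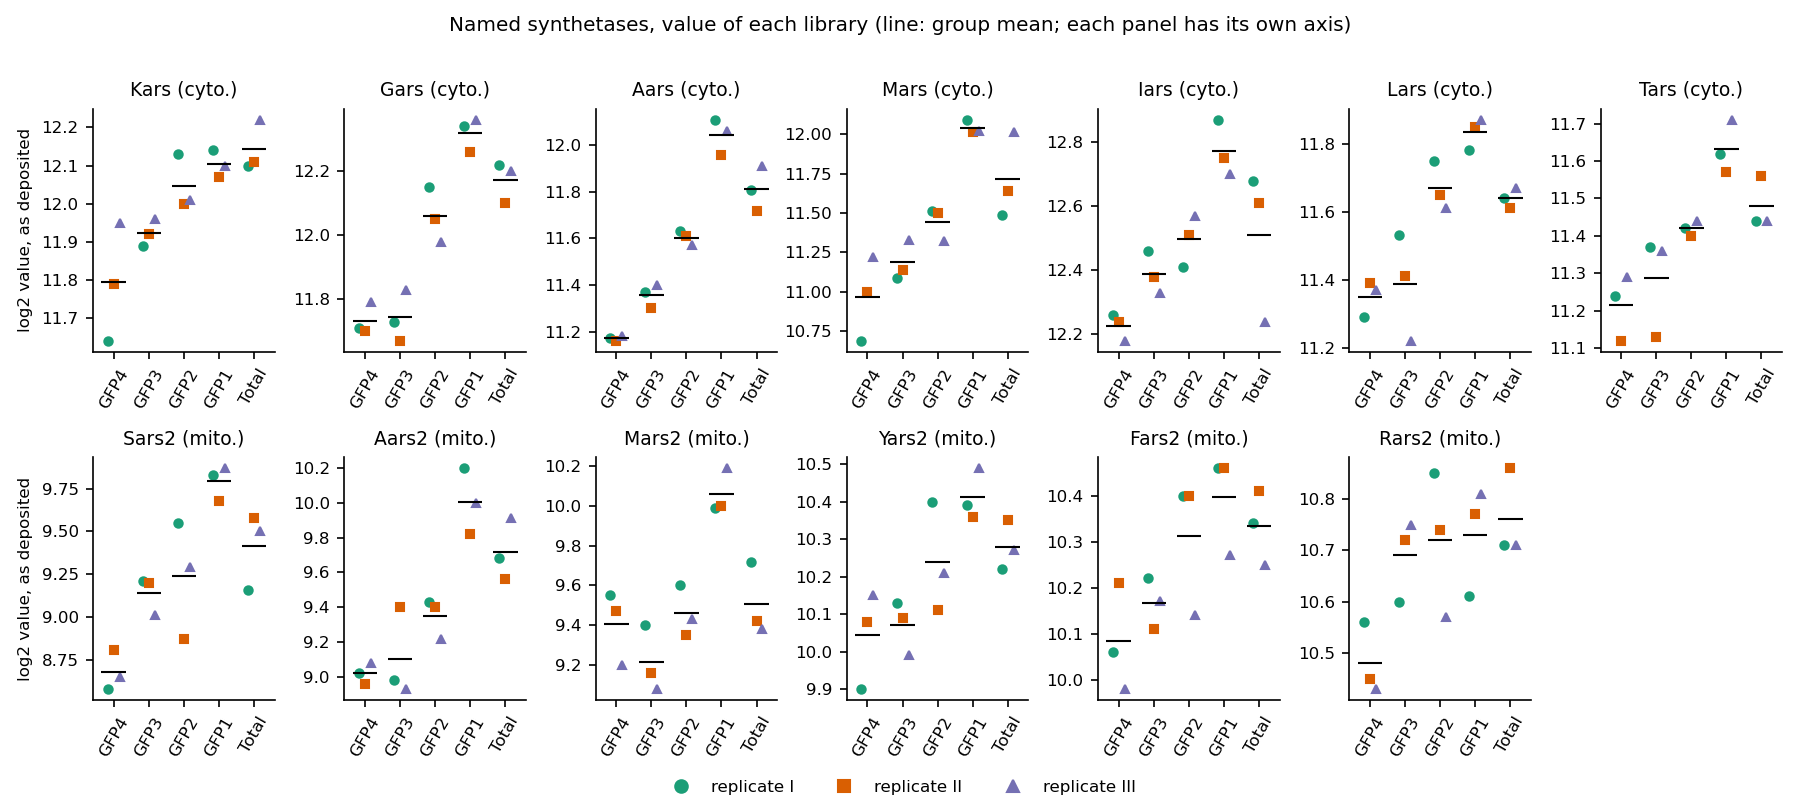
Deposited log2 value of each library (points, coloured and shaped by replicate) in the 5 groups for 13 synthetases followed in every library, 7 cytosolic in the top row and 6 mitochondrial in the bottom row, with the group mean as a line and a separate axis in each panel. Aars climbs from 11.17 in GFP4 to 12.05 in GFP1 as group means with little spread, whereas Rars2 stays between 10.43 and 10.86 in all libraries.

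The other cytosolic genes that passed were Tarsl2 (0.47), Yars (0.40), Hars (0.35), Farsa (0.34), Eprs (0.28) and Farsb (0.24). Farsa and Farsb encode the alpha and beta subunits of the same phenylalanine enzyme, and Eprs charges both glutamate and proline. Of the 13 calls, 7 (Aars, Gars, Hars, Iars, Lars, Mars and Tars) were kept whichever GFP4 or GFP1 library was left out, and 6 were lost in at least 1 of the 6 fits. Farsb was lost in all 6, Tarsl2 in every fit except that without GFP4 replicate I, and Farsa without GFP4 replicate I or II or GFP1 replicate I or III. Eprs was lost without GFP1 replicate II and Yars without GFP4 replicate II.

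The 8 cytosolic genes that did not pass had values of 0.28 in Dars (adjusted p = 0.0573), 0.27 in Cars, 0.26 in Wars, 0.25 in Nars, 0.23 in Sars, 0.16 in Rars, 0.08 in Vars and -0.15 in Qars. Qars, which charges glutamine, was the one cytosolic gene with a value below 0: it read 11.33, 11.47 and 11.40 in GFP4 and 11.48, 11.19 and 11.08 in GFP1, and the groups overlapped. Membership of the multisynthetase complex did not separate the genes that passed: 5 of its 8 synthetases were higher (median 0.30), against 8 of 13 outside it (median 0.34). Of the 12 genes described as ATF4 targets in general knowledge, 8 were higher (median 0.41), and of the other 9, 5 were higher (median 0.28). By the structure of the catalytic domain, 6 of 18 class I and 11 of 19 class II enzymes of both compartments were higher, Eprs holding a domain of each. The class I enzymes counted here include Lars2, which did not pass. None of these differences between subsets was tested.

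Mitochondrial synthetases, given without Lars2, were fewer among the genes that passed. Of 16, 5 were higher in GFP1 than in GFP4 and none was lower, with a median difference of 0.29. In the range of values of the synthetases of both compartments (9.14 to 14.16), 19.6% of genes were higher. In 10 genes the GFP1 libraries all lay above the GFP4 libraries, as in 28.4% of genes in that range. The range reaches above these 16 genes, whose highest value in any library was 12.01 (Iars2). Sars2, which charges mitochondrial serine tRNAs, and Aars2, which charges mitochondrial alanine tRNA, differed most. The medians were close, 0.31 over the cytosolic and 0.29 over these mitochondrial genes. Standard errors also differed between genes: Pars2 at 0.42 ± 0.18 did not pass, whereas the cytosolic Farsb at 0.24 ± 0.08 did. The difference between the cytosolic and mitochondrial counts was not tested.

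Sars2 lies at chr7:28741992-28753871, plus strand, and read 8.58, 8.81 and 8.65 in GFP4, 9.21, 9.20 and 9.01 in GFP3, 9.55, 8.87 and 9.29 in GFP2, 9.83, 9.68 and 9.87 in GFP1, and 9.16, 9.58 and 9.50 in Total. GFP4 lay below every other library, and GFP2 replicate II lay below all GFP3 libraries. The GFP1 difference was 1.12 ± 0.17, or 2.17-fold (adjusted p = 6.26e-05). Aars2 lies at chr17:45506841-45520843, plus strand, and read 9.02, 8.96 and 9.08 in GFP4, 8.98, 9.40 and 8.93 in GFP3, 9.43, 9.40 and 9.22 in GFP2, 10.20, 9.82 and 10.00 in GFP1, and 9.68, 9.56 and 9.91 in Total. GFP1 stood above the other 3 bins, and the GFP3 libraries spanned most of the range of GFP4 and GFP2. Its GFP1 difference was 0.99 ± 0.15, or 1.98-fold (adjusted p = 8.72e-05).

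Mars2 charges mitochondrial methionine tRNAs. Mars2 read 9.55, 9.47 and 9.20 in GFP4, 9.40, 9.16 and 9.08 in GFP3, 9.60, 9.35 and 9.43 in GFP2, 9.99, 10.00 and 10.19 in GFP1, and 9.72, 9.42 and 9.38 in Total (0.66 ± 0.15, adjusted p = 0.00257). Mars2 was high in GFP1 and overlapped among GFP4, GFP3 and GFP2.

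Yars2, for tyrosine, read 9.90, 10.08 and 10.15 in GFP4, 10.13, 10.09 and 9.99 in GFP3, 10.40, 10.11 and 10.21 in GFP2, 10.39, 10.36 and 10.49 in GFP1, and 10.22, 10.35 and 10.27 in Total. Its difference of 0.37 ± 0.11 passed (adjusted p = 0.0267) and was lost in 4 of 6 fits, those without GFP4 replicate I or II or GFP1 replicate I or III. The calls of Aars2, Mars2 and Sars2 were kept in all 6. Fars2, for phenylalanine, did not pass (0.31 ± 0.11, adjusted p = 0.0646). It read 10.06, 10.21 and 9.98 in GFP4, 10.22, 10.11 and 10.17 in GFP3, 10.40, 10.40 and 10.14 in GFP2, 10.46, 10.46 and 10.27 in GFP1, and 10.34, 10.41 and 10.25 in Total. Rars2, for arginine, read 10.56, 10.45 and 10.43 in GFP4, 10.60, 10.72 and 10.75 in GFP3, 10.85, 10.74 and 10.57 in GFP2, 10.61, 10.77 and 10.81 in GFP1, and 10.71, 10.86 and 10.71 in Total (0.25 ± 0.11, adjusted p = 0.131). GFP4 lay below the other bins in Rars2, which did not differ among themselves beyond their spread.

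Of the mitochondrial genes that did not pass, Pars2 had a difference of 0.42 with a standard error of 0.18, Cars2 0.35, Tars2 0.27, Vars2 0.21, Wars2 0.12, Nars2 0.11, Iars2 0.11, Hars2 -0.05 and Ears2 -0.10. Ears2 charges mitochondrial glutamate tRNA, and also glutamine tRNA before the amidation step that completes it.

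**Figure D2:**
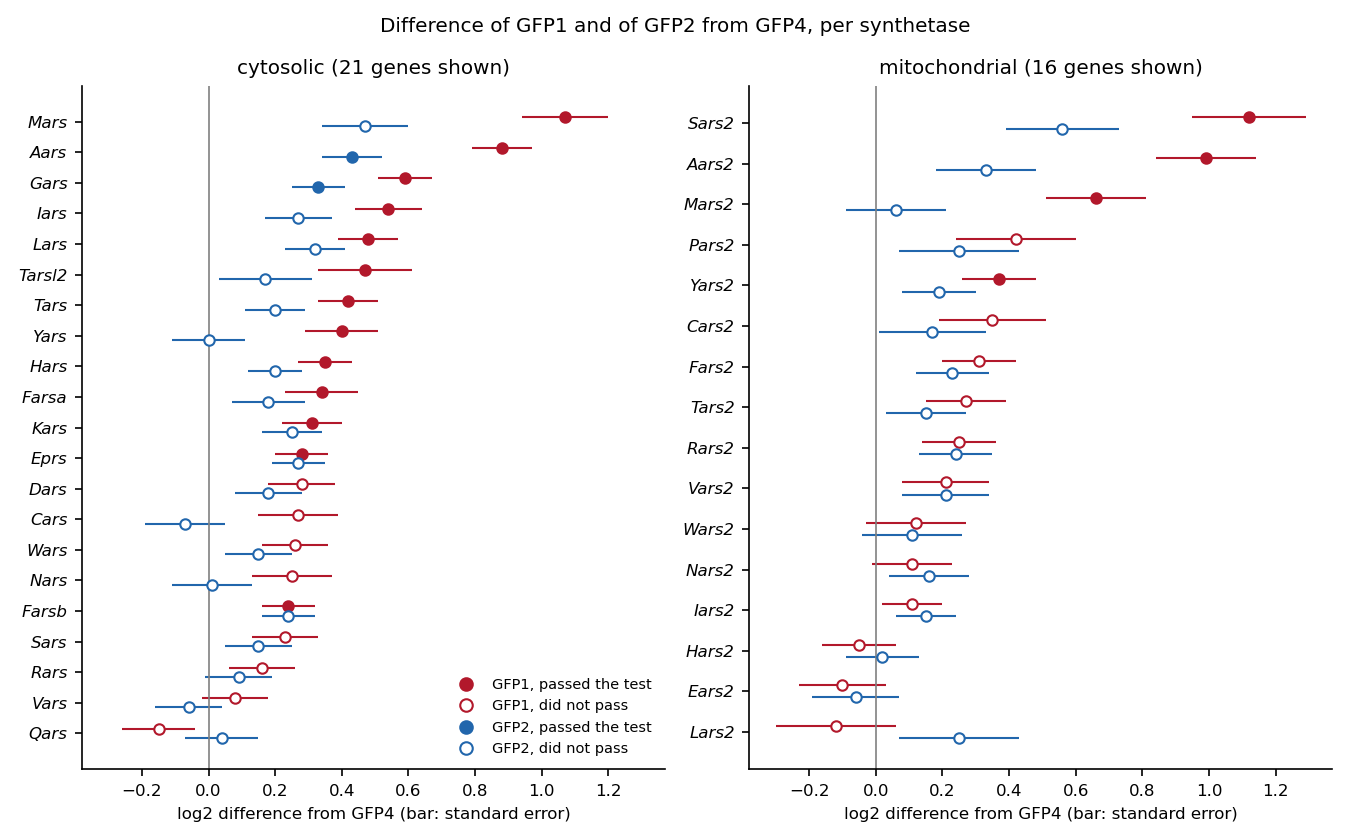
Log2 difference from GFP4 of GFP1 (red) and GFP2 (blue) for 37 of the cytosolic and mitochondrial synthetases, with bars for the standard error and filled points where the adjusted p was below 0.05. Both comparisons share the GFP4 libraries. In GFP1, 33 of 37 points lie to the right of 0 and 17 are filled, and in GFP2, 33 lie to the right and 2 are filled. The points include Lars2, whose values are ranks rather than amounts: it lies left of 0 in GFP1, right of 0 in GFP2 and is unfilled.

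The cytosolic and the mitochondrial enzyme of one amino acid did not always differ by the same amount. Leaving out leucine, the 4 widest gaps in the GFP1 against GFP4 difference were serine (Sars 0.23, Sars2 1.12), isoleucine (Iars 0.54, Iars2 0.11), methionine (Mars 1.07, Mars2 0.66) and histidine (Hars 0.35, Hars2 -0.05). For alanine the pair differed alike in size, 0.88 in Aars and 0.99 in Aars2. Hars and Hars2 overlap at their starts on opposite strands, and the library kit does not mark strand, so that reads from the overlap cannot be told apart. These gaps are a description and were not tested.

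Summed immunoglobulin values and summed synthetase values without Lars2 were both higher in GFP1 than in GFP4. The part of the immunoglobulin signal in the synthetase differences was not tested. In summed linear values the cytosolic synthetases made up 0.214 to 0.227% in GFP4, 0.226 to 0.232% in GFP3, 0.241 to 0.252% in GFP2, 0.265 to 0.284% in GFP1 and 0.253 to 0.264% in Total. The mitochondrial genes without Lars2 made up 0.0538 to 0.0589%, 0.0549 to 0.0611%, 0.0604 to 0.0688%, 0.0664 to 0.0717% and 0.0616 to 0.068% in the same order. GFP2 carried 0.00738 to 0.0162% immunoglobulin, below the share in 2 of 3 GFP4 libraries, and its summed synthetase values were above those of all GFP4 libraries in both compartments. When the quantile normalization was repeated without the 352 immunoglobulin genes, 22 synthetases passed in GFP1 against GFP4, all 18 of the original among them. The 22 also include Lars2, whose values are ranks and which is given apart below.

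**Figure D3:**
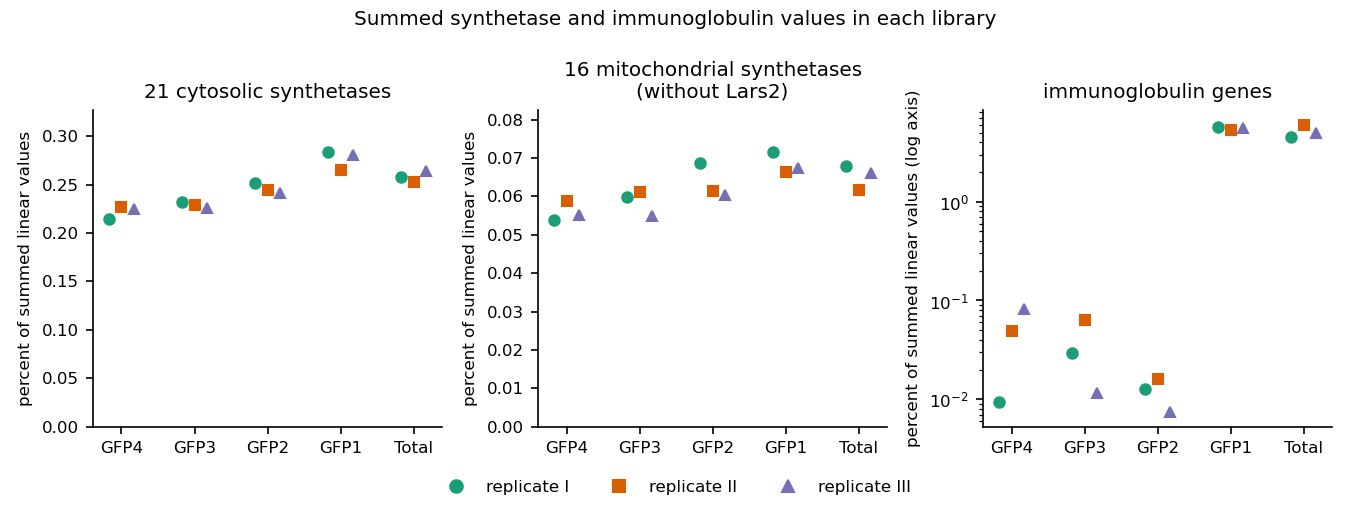
Share of the summed linear values held by the 21 cytosolic synthetases, by the 16 mitochondrial synthetases without Lars2 and by immunoglobulin genes (log axis in the last panel), for each library. The cytosolic shares are 0.214 to 0.227% in GFP4, 0.241 to 0.252% in GFP2 and 0.265 to 0.284% in GFP1, while immunoglobulin is high in GFP1 and Total and at or below 0.0826% in the other bins.

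In GFP2, Aars and Gars were the synthetases that were higher than in GFP4. Against GFP4, 2 of 38 synthetases passed, Aars (0.43 ± 0.09, 1.35-fold, adjusted p = 0.00479) and Gars (0.33 ± 0.08, 1.25-fold, adjusted p = 0.0295), and both were higher. The background was 4.35% of all genes in either direction and 2.69% higher, and 6.55% higher among genes in the same range of values, so the number that passed is near the background. The medians were 0.18 over the cytosolic and 0.18 over the mitochondrial genes without Lars2, against 0.00 over genes of the same range. In 16 of 38 genes, 10 cytosolic and 6 mitochondrial, all GFP2 libraries lay above all GFP4 libraries, which held for 20.5% of genes of the same range. The Aars call was kept in all 6 fits that left out a library, and that of Gars was lost in 5 of them, with a total of 1 passing without GFP4 replicate I or II or GFP2 replicate I. Without GFP2 replicate II, Gars no longer passed and Sars2 did (0.74, adjusted p = 0.0173). Without GFP4 replicate III, Gars did not pass and Mars did (0.60, adjusted p = 0.0274).

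Some genes came close to the threshold in that comparison: Mars 0.47 (adjusted p = 0.0532), Lars 0.32 (adjusted p = 0.0564), Eprs 0.27 (adjusted p = 0.0662) and Sars2 0.56 (adjusted p = 0.0751). In a fit of the GFP4, GFP3 and GFP2 libraries alone, which leaves out both groups with the immunoglobulin signal, 4 cytosolic genes passed, Aars, Eprs, Gars and Mars. Over all genes, 1398 passed in that fit, against 1219 in the main fit. Of the plasma cell markers 1 of 15 (Fkbp11) was higher in GFP2 than in GFP4 and their median was -0.25. HSC markers were lower in 6 of 12 (median -0.45), with a summed share of 0.446 to 0.472% in GFP2 against 0.565 to 0.656% in GFP4. Neutrophil markers had a median of -0.79 with 0 of 7 passing. Macrophage markers had a median of 1.40 in GFP2 with 0 of 7 passing, and a summed share of 0.0205 to 0.117% in GFP2 against 0.00937 to 0.0346% in GFP4. The part of these markers in the result was not tested.

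Between neighbouring bins the median steps were small, though single genes rose by up to 0.66 from GFP2 to GFP1. The medians of that last step were 0.16 over the cytosolic and 0.10 over the mitochondrial genes without Lars2. GFP3 against GFP4 gave 0 synthetases in a comparison where 0.0572% of all genes passed. At an unadjusted p below 0.05 there were 2 of 38, against 5.86% of all genes and 10.2% in the same range of values. The medians were 0.05 over the cytosolic and 0.07 over the mitochondrial genes without Lars2. GFP2 against GFP3 gave 0 (4 of 38 unadjusted) where 0.00% of genes passed, with medians of 0.12 in both compartments. GFP1 against GFP2 gave 5, all higher, where 7.17% of genes passed in either direction: Aars (0.45 ± 0.09, adjusted p = 0.00267), Mars (0.60 ± 0.13, adjusted p = 0.00878), Aars2 (0.66 ± 0.15, adjusted p = 0.0120), Mars2 (0.60 ± 0.15, adjusted p = 0.0148) and Yars (0.40 ± 0.11, adjusted p = 0.0262). That number was 3 without GFP2 replicate II, GFP1 replicate I or GFP1 replicate III, and 2 without GFP2 replicate III.

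Group means were in rising order from GFP4 over GFP3 and GFP2 to GFP1 for 15 of 21 cytosolic and 8 of 16 mitochondrial genes, against 24.1% of genes in the same range of values. The cytosolic exceptions were Cars, Nars, Qars, Rars, Vars and Yars. Yars read 11.24, 10.99 and 11.06 in GFP4, 10.94, 11.07 and 11.28 in GFP2 and 11.55, 11.44 and 11.50 in GFP1, so that only GFP1 stood apart. The largest upward step was the last, from GFP2 to GFP1, in 12 of 21 cytosolic and 5 of 16 mitochondrial genes. It was the step from GFP3 to GFP2 in 6 cytosolic genes, among them Gars (0.32) and Lars (0.28), and in 7 mitochondrial genes. The difference between compartments was not tested.

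The unfractionated HSCs (Total) lay within the range of the bin means for 20 of 21 cytosolic genes, Kars excepted, and for 11 of 16 mitochondrial genes. Against Total, GFP4 was lower in 9 synthetases, 6 cytosolic and 3 mitochondrial, where 10.0% of all genes passed in either direction. Aars (-0.64 ± 0.09, adjusted p = 5.57e-05) and Mars (-0.74 ± 0.13, adjusted p = 0.00104) had the smallest p-values, and Gars, Hars, Kars, Eprs, Sars2 and Aars2 were also among them. Without GFP4 replicate I, 5 passed. GFP3 was lower than Total in 4 synthetases (Aars, Gars, Mars and Aars2) where 2.14% of genes passed. That number was 1 without GFP3 replicate II and 2 without GFP3 replicate I, GFP3 replicate III or Total replicate III, and 0 in a fit of these 2 groups alone. GFP2 against Total gave 0 where 0.329% of genes passed. At an unadjusted p below 0.05 there were 4 of 38, against 6.72% of all genes and 7.23% in the same range of values. GFP1 against Total gave 0 where 1.73% passed. Unadjusted, there were 5 of 38, against 11.8% of all genes and 21.1% in the same range of values. It gave 1 (Mars2) with the replicate block, which the correlation of these libraries was taken to warrant, or without Total replicate I. Mars2 was 0.55 ± 0.15 above Total in GFP1 (adjusted p = 0.0635 without the block).

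Lars2, the mitochondrial leucine enzyme (chr9:123366927-123462666, plus strand), is given apart because it stood at the very top of the table. It read 18.75, 19.12 and 18.75 in GFP4, 19.12 in all 3 GFP3 and all 3 GFP2 libraries, 18.75 in all 3 GFP1 libraries, and 18.75, 17.94 and 18.75 in Total. Quantile normalization gives the gene of rank 1 the value 19.12, rank 2 18.75 and rank 3 17.94 in every library, so these numbers are ranks rather than amounts. Lars2 ranked first in 7 libraries. It ranked behind Gm10800 in GFP4 replicate I, behind mt-Co3 in GFP4 replicate III, behind Igkc in the GFP1 libraries and in Total replicates I and III, and behind Igkc and Igha in Total replicate II. Its GFP1 against GFP4 difference was -0.12 ± 0.18 (adjusted p = 0.768). After renormalization without immunoglobulin genes Lars2 ranked first in 13 libraries and second in GFP4 replicates I and III, and the difference turned to 0.38 (adjusted p = 0.0159).

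**Figure D4:**
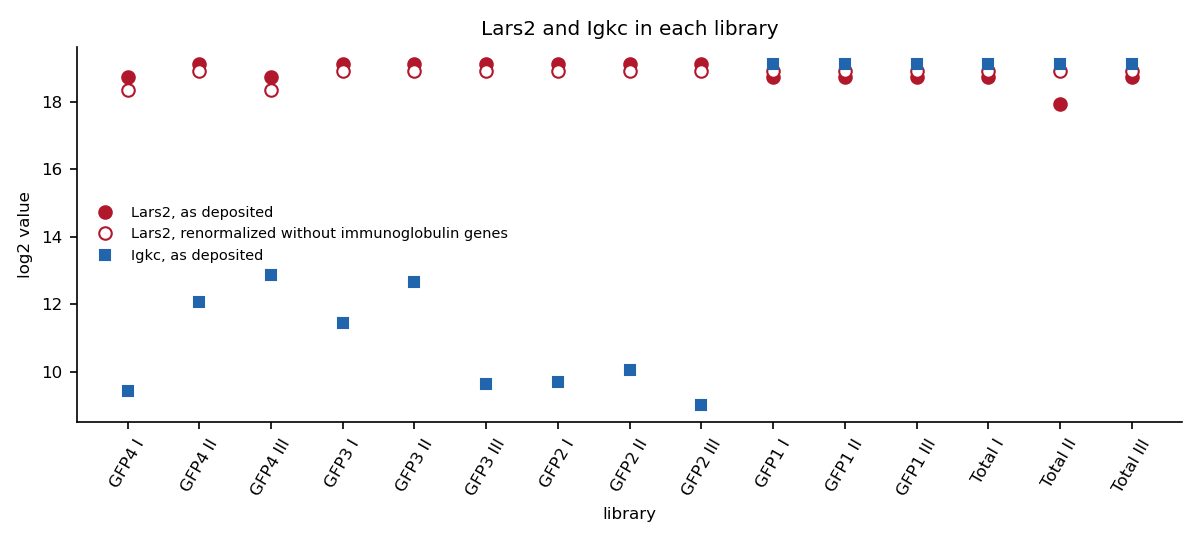
Log2 value of Lars2 as deposited (filled red), after renormalization without immunoglobulin genes (open red), and of Igkc (blue squares) in each of the 15 libraries. Lars2 takes only the values 19.12, 18.75 and 17.94 as deposited, and drops from 19.12 to 18.75 in GFP1 where Igkc takes 19.12.

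A share of ribosomal RNA reads within the Lars2 value could not be measured here, since none of the 15 ribosomal and other abundant noncoding genes listed for this purpose was a row analysed here. The main Lars2 transcript, 3894 bases long with its last coding base at 2908, was aligned to all reference transcripts (BLAST, expectation limit 1e-05). It matched parts of 8 other genes, all within its 3′ UTR. The closest was Gm15564, annotated as an antisense gene, with 72 bases at 98.6% identity (Lars2 bases 3278 to 3349), and the longest was AA474408, with 196 bases at 80.1% identity. None of the 356 genes annotated as cytosolic or mitochondrial ribosomal RNA in the reference matched. The nuclear ribosomal RNA precursor was not among the transcripts searched, so similarity of Lars2 to it was not examined. Of the 15 listed genes, 13 had a reference transcript, and 1 of them, Gm15564, matched.

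Genes that work with the synthetases were called in both directions. The counts of these lists in GFP1 against GFP4 stand beside 19.5% of all genes called in either direction, 9.27% called higher, and 19.6% called higher in the synthetases' range of values. Of the 3 scaffold genes of the multisynthetase complex, 2 were higher in GFP1 than in GFP4. Aimp2 read 9.86, 10.04 and 10.10 in GFP4 and 10.73, 10.79 and 10.70 in GFP1 (0.74 ± 0.14, adjusted p = 0.000465), and Eef1e1 read 9.84, 9.75 and 9.95 against 10.39, 10.55 and 10.42 (0.61 ± 0.13, adjusted p = 0.00126). Aimp1 did not pass (0.16). Aarsd1, which removes serine wrongly joined to alanine tRNA, differed by 1.44 ± 0.13 (adjusted p = 2.01e-07): it read 9.55, 9.45 and 9.68 in GFP4, 10.44, 10.40 and 10.33 in GFP2 and 11.05, 10.98 and 10.98 in GFP1. It was also higher in GFP2 than in GFP4 (0.83, adjusted p = 0.00104). Of the other 3 editing and proofreading genes, Dtd2 was lower in GFP1 (-0.40, adjusted p = 0.0148) and Prorsd1 and Dtd1 did not pass.

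The amino acid response list, 32 genes of the ATF4 pathway without the synthetases themselves, had 13 higher and 5 lower in GFP1 than in GFP4, with a median of 0.31. Slc7a5, an importer of large neutral amino acids, read 10.24, 10.37 and 9.91 in GFP4, 11.13, 11.17 and 10.91 in GFP2 and 12.02, 11.82 and 11.95 in GFP1 (1.75 ± 0.13, adjusted p = 1.38e-08). Psat1 of serine synthesis (1.28) and Shmt2 of mitochondrial one-carbon metabolism (0.82) were also higher. Trib3, an inhibitor of the response that ATF4 itself induces, read 11.39, 11.22 and 11.41 in GFP4, 9.93, 10.50 and 10.20 in GFP2 and 8.51, 8.61 and 8.56 in GFP1 (-2.78 ± 0.18, adjusted p = 2.79e-09). Nupr1 (-0.64) and Ppp1r15a (-0.53), both stress-induced, were lower. Atf4 itself, named outside the rule for naming genes, had a difference of 0.01 (adjusted p = 0.987), and 0 of 4 eIF2 alpha kinase genes passed by limma (0 at an unadjusted p below 0.05). In GFP2 against GFP4, 5 genes of the list were higher and 1 lower, among them Psat1 (0.85), Slc7a5 (0.89) and Trib3 (-1.13).

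In the cytosol, 7 of 23 tRNA modification genes were higher in GFP1 than in GFP4 and none was lower. The smallest p-values were those of Trmt6 (0.62), Nat10 (0.41) and Wdr4 (0.55), which take part in methylation, acetylation and methylation of tRNA bases. Of 6 genes of the selenocysteine pathway, Sephs2 (0.51) and Eefsec (0.43) were higher. Of 8 genes listed for elongation, Eif5a was higher (0.66) and Eef1a1 (-0.74) and Eef2 (-0.55) were lower. Eef2k, on the same list, was also lower (-0.49), but it encodes a kinase that inhibits eEF2 rather than an elongation factor. Eef1a1 ranks near the top of each library, as the most abundant immunoglobulin genes do in GFP1: it no longer passed after renormalization without them (-0.06, adjusted p = 0.837), while Eef2 did (-0.38, adjusted p = 0.0464).

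In mitochondria, 3 of 10 translation factor genes were higher, Tsfm (0.83), Gfm1 (0.53) and Tufm (0.43), which act in elongation. Of 12 tRNA processing and modification genes tested, of 13 listed, Pus1 (0.42) and Elac2 (0.41) were higher and Hsd17b10 (-0.56) was lower, a number near the background of all genes. None of the 4 genes of glutamine tRNA amidation and methionine tRNA formylation passed by limma, with 1 at an unadjusted p below 0.05. Mitochondrial DNA encodes 13 protein genes, which are translated with these enzymes: 7 were lower, none was higher and the median was -0.57. After renormalization without immunoglobulin genes 3 of the 7 calls were kept (mt-Nd4, mt-Nd4l and mt-Nd5) and the median was -0.47. The smallest p-values as deposited were those of mt-Co1 (-0.74), mt-Co2 (-0.50) and mt-Nd5 (-0.66), which became 0.07 (adjusted p = 0.651), -0.15 (adjusted p = 0.329) and -0.59 (adjusted p = 0.000940) after that renormalization. Like Eef1a1, mt-Co1 lies near the top of each library. mt-Co1 read 17.75, 17.94 and 17.75 in GFP4, 17.75 in all 3 GFP2 libraries and 16.94, 17.13 and 17.13 in GFP1. In GFP2 against GFP4 0 of these 13 passed (1 at an unadjusted p below 0.05), with a median of -0.16.

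**Figure D5:**
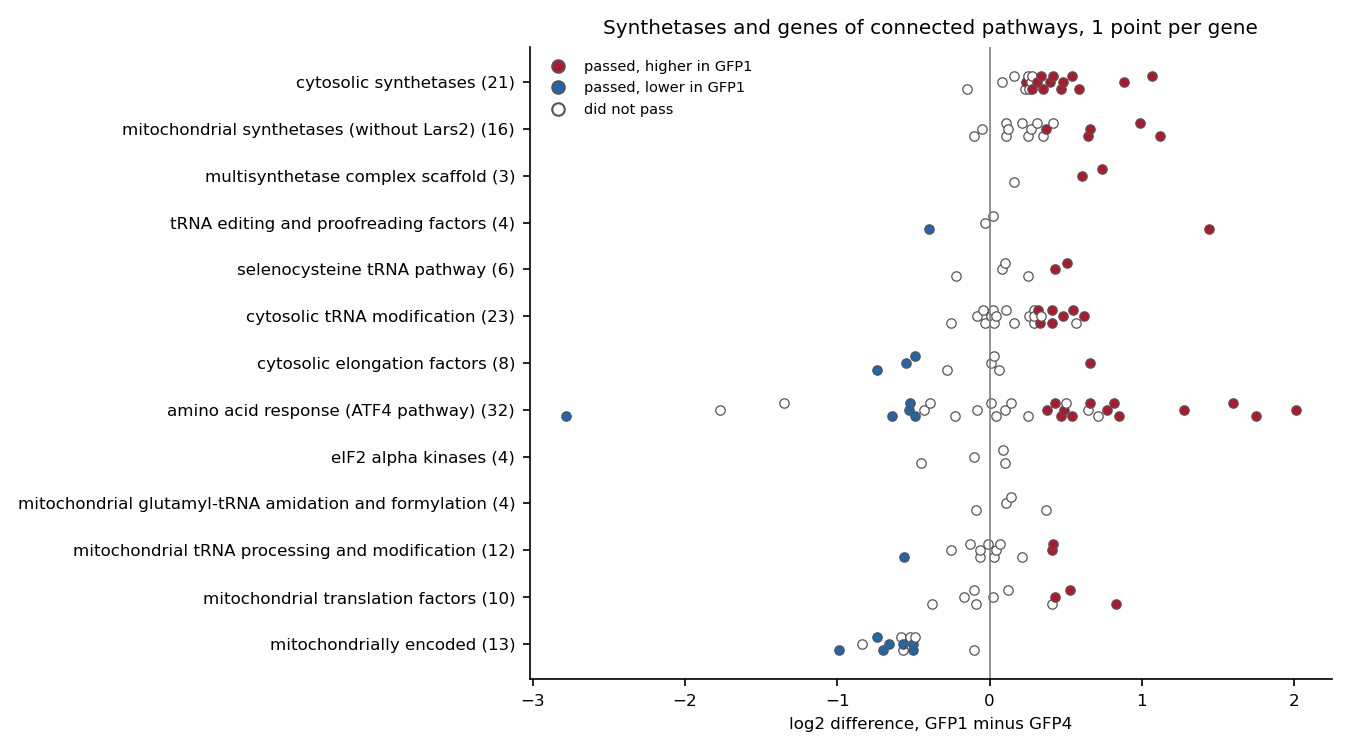
Log2 difference between GFP1 and GFP4 for each gene (points) of the synthetase sets and of 11 lists of connected genes, coloured where the adjusted p was below 0.05 and offset vertically for visibility, with the number of genes tested in brackets. The synthetases lie mostly between 0 and 1.12, the amino acid response spans -2.78 to 2.01, and the mitochondrially encoded genes lie between -0.99 and -0.10 as deposited, with 3 of their 7 calls kept without immunoglobulin genes.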

How the data were processed

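RNA from sorted HSCs was made into SMART-Seq v4 and Nextera XT libraries, per the labels' protocols. The authors deposited 1 table of log2 values for 31298 symbols in 15 libraries. Reads were handled with kallisto 0.43.0 and GRCm38, per the submitters' processing notes; how transcripts were summed to genes, and what was added before taking logarithms, is not given in the sources used here. Values in each library follow one distribution, so a few very abundant genes in a library shift the ranks of others. No column was left unmapped (0), and depth is unknown. The 27994 genes with 3 or more libraries at 1 or above on the linear scale were tested with limma 3.58.1 in R 4.3.3: 1 mean per group over all 15 libraries, trended and robust variance, Benjamini-Hochberg adjustment over all genes per comparison, threshold 0.05. The script was tested on simulated data. Motifs and figures used Python, and alignment used BLAST 2.17.0.

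Members, lists and motifs were chosen with earlier results of these data known. Values in every library are given for Lars2, Kars, Gars and the members with the smallest p in GFP1 or GFP2 against GFP4 in each compartment; 1 member enters the counts and is not reported by name here; in connected lists, up to 3 genes each way by smallest p among those that passed are named. Replicate numbers are shared across groups. Deviations from group means of equally numbered libraries were correlated over 10726 genes. They correlated above 0.1 in all 3 pairs for GFP1 against GFP2 (0.43, 0.48 and 0.47) and GFP3 against Total (0.57, 0.26 and 0.32). They also did so for GFP2 against Total (0.39, 0.34 and 0.35) and GFP1 against Total (0.65, 0.61 and 0.46). By this measure the replicate block was taken as warranted there only, although equally numbered libraries of all groups shared age and weeks of doxycycline. The main fit left the block out in every comparison, and the block was run as an alternative. With it, GFP1 against GFP2 gave 5 synthetases, GFP3 against Total 4, GFP2 against Total 0 and GFP1 against Total 1.

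The alternatives were no filter, an offset of 0.1, quantile normalization without immunoglobulin genes, median-of-ratios rescaling, array weights, the replicate block, the compared groups alone and each library left out; after seeing the data, a fit of GFP4, GFP3 and GFP2 alone and a mean log2 filter of at least 8 were added.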

Additional observations from a re-analysis of the deposited data

How the results depend on the processing

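In GFP1 against GFP4 all 18 synthetases that passed were called under every alternative that kept all compared libraries (18 to 23 in all), and 12 to 16 passed with each library left out. Among all genes, 5468 passed in that comparison in the main fit, and 5078 to 6295 under the alternatives that kept all compared libraries. The cytosolic synthetases that passed numbered 8 to 11 with each library left out. In GFP2 against GFP4 the number moved from 2 to 4 with array weights, 4 in the compared groups alone, 4 in GFP4, GFP3 and GFP2 alone, 5 with the replicate block, 9 with the mean log2 filter of at least 8, and 1 to 2 with each library left out; the cytosolic number was 4, 4, 4, 4, 7 and 1 to 2 in that order, and the mitochondrial number 1 with the block, 2 with the mean filter and 0 to 1 with each library left out. Among all genes, 1219 passed in that comparison in the main fit, 1363 with array weights and 1329 in the compared groups alone. The number was 1398 in GFP4, GFP3 and GFP2 alone, 1604 with the replicate block and 1653 of 10726 genes with the mean filter. The replicate block was not taken as warranted in this comparison, as equally numbered libraries correlated at -0.49, -0.34 and -0.03. Those libraries share age and weeks of doxycycline, and these correlations cannot show that they are unpaired. GFP1 against GFP2 gave 8 with median-of-ratios rescaling, 8 with the mean filter and 2 to 5 with each library left out. GFP4 against Total gave 5 in the compared groups alone, 16 with the mean filter and 5 to 10 with each library left out. GFP3 against Total gave 2 with array weights, 0 in the compared groups alone and 1 to 4 with each library left out. GFP1 against Total gave 1 with median-of-ratios rescaling, 1 with the replicate block, 1 with the mean filter and 0 to 1 with each library left out. GFP3 against GFP4, GFP2 against GFP3 and GFP2 against Total gave 0 under every alternative. Lars2 in GFP1 against GFP4 reversed to 0.38 without immunoglobulin genes, by the ranks they free. Mars2 in GFP2 against GFP4, 0.06, reversed to -0.05 without GFP4 replicate III and -0.01 without GFP2 replicate I, and reached 0.13 at most. The other causes were not tested. Fewer genes were tested under the mean filter, and the part of this in its numbers was not tested. Depth is unknown.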
